A study of Homo sapiens with 12 samples.

Results

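The genes described here are the protein-coding genes of human chromosome 19 in GENCODE 29 whose symbol is ZNF followed by digits. There are 240 of them, of which 239 had a row in the deposited tables. A total of 190 passed a minimum of 10 counts in at least 3 libraries and were tested, among 15306 genes tested in all. The members were chosen by name and position, not by a measured value. Of the 190 tested members, 169 reached 10 counts in all 12 libraries.

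RPE-1 is an immortal human line that was established from the pigmented epithelium of the retina, and its polyadenylated RNA was sequenced in 4 groups of 3 libraries, 12 in all. All cells were kept without fetal calf serum (FCS) and glucose for 24 h. The starved group was taken at that point, and the other groups were given 10% FCS with glucose at 5 g/l, for 4 h, together with the solvent DMSO (the solvent group), with 100 µM dimethyl amiloride (the DMA group) or with 10 µM C646 (the C646 group). DMA is an inhibitor of Na+/H+ exchangers, and C646 is an inhibitor of the histone acetyltransferases p300 and CBP. The libraries of a group are numbered from 1 to 3, and the labels do not say that they are separate cultures, so p-values measure only the spread between these samples, which may be technical. No DMA or C646 library was made without FCS and glucose.

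Most proteins of this family carry a row of C2H2 zinc fingers, small folds in which a pair of cysteines and a pair of histidines hold a zinc ion, and the row of fingers reads DNA sequence. Many also carry a KRAB box, a domain that binds the corepressor TRIM28 (KAP1). TRIM28 in turn brings the histone H3 lysine 9 methyltransferase SETDB1 and heterochromatin protein 1, and many KRAB zinc finger proteins silence transposable elements in this way. The genes arose by repeated duplication and lie in clusters on chromosome 19.

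A KRAB motif was found in the translated coding sequence of 203 of the 240 members, and the number of fingers in the tested members ranged from 0 to 31, with a median of 12. The repeated unit is shown for 6 members, as the element that most proteins of this family have in common. Its part in the sequence shared between genes was not tested. Each line holds the coding bases of the first complete finger and its linker in the GENCODE 29 transcript, 81 bases from 5′ to 3′, with the codons of the zinc-binding cysteines and histidines in capitals. ZNF260, ZNF766, ZNF480 and ZNF44 are the members called with an inhibitor against solvent, ZNF91 had the most fingers and ZNF146 the highest level.
ZNF260: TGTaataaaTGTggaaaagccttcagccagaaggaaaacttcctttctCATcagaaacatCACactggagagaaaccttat
ZNF766: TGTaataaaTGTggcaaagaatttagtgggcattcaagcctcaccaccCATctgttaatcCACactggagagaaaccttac
ZNF480: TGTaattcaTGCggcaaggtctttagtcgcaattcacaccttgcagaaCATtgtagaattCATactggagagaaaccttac
ZNF44: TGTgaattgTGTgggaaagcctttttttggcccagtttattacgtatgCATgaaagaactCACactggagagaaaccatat
ZNF91: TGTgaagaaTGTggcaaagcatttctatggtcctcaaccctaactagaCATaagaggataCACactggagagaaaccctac
ZNF146: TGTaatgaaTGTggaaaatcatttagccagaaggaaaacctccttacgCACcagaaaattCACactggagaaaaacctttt

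On GRCh38 these units lie at chr19:36514906-36514986 (ZNF260, minus strand), chr19:52290776-52290856 (ZNF766, plus strand), chr19:52321947-52322027 (ZNF480, plus strand), chr19:12273580-12273660 (ZNF44, minus strand), chr19:23362097-23362177 (ZNF91, minus strand) and chr19:36236660-36236740 (ZNF146, plus strand). The units of ZNF260 and ZNF146 had 69 of 81 bases in common (85.2%), and those of ZNF480 and ZNF44 had 45 (55.6%). Sequence shared between genes limits how surely reads are assigned. Over 20% of the 31-base sequences, or over 20% of the exon bases, were shared with or overlapped by another gene in 46 of the 190 tested members, and these are called uncertain below. In the sources used here it is not given how the authors' counting treated strand.

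The libraries held 14910516 to 28968510 expected counts, and 3 reads corresponded to 0.104 to 0.201 CPM (the expected counts divided by the scaled library total, times 1e+06), which covers counting error only. Of the markers checked for the cell line, KRT8 and KRT18 were at 264 to 756 TPM (a level corrected for transcript length and scaled to a sum of 1e+06), MITF at 6.28 to 23.1 TPM and OTX2 at 4.69 to 16 TPM. Genes of mature or pigmented retinal pigment epithelium were low, with RPE65, TYR and DCT at most at 0.173 TPM and RLBP1, PMEL, BEST1 and SERPINF1 at most at 0.503, 1.12, 1.61 and 2.10 TPM. The 7 markers of other cell types were at most at 0.459 TPM.

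The tested members were expressed at a median of 3.18 TPM, against 11.6 TPM over all genes tested. Their levels ranged from 0.0877 to 47.6 TPM, and 21 reached 10 TPM. ZNF146, a protein made almost wholly of zinc fingers, was highest at 42.8 ± 8.0 TPM in starved, 55.6 ± 7.4 in solvent, 46.2 ± 7.1 in DMA and 45.9 ± 0.67 in C646 cells (mean ± SD, n = 3). ZNF358, ZNF580, ZNF561, ZNF581 and ZNF226 followed at means of 46.2, 39.5, 38.2, 37.2 and 35.7 TPM, then ZNF428 at 27.4 and ZNF83 at 15.7 TPM. Neighbours in this order overlapped in their library ranges, which ran from 36.8 to 64.1 TPM for ZNF146 and from 31.3 to 61.8 TPM for ZNF358. ZNF358, ZNF581 and ZNF428 are uncertain. Of these 8 genes ZNF561 and ZNF226 carry a KRAB motif and the other 6 do not.

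A total of 50 members stayed below the filter, and none of those with a row exceeded 16.1 counts in a library. ZNF536, known as a regulator of neuronal differentiation, was listed at 0 in every library. ZNF43 and ZNF528 reached at most 7.11 and 9.0 counts. They are not tested, and no direction is given for them.

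With TMM scaling, which holds the bulk of genes level, members moved both ways on refeeding with serum and glucose. The solvent group differs from starved cells in serum, glucose, DMSO and 4 h more in culture, which cannot be told apart. Against starved cells, 13 of 190 members rose in the solvent group and 10 fell by edgeR's quasi-likelihood test with a Benjamini-Hochberg adjusted p under 0.05. Of all genes tested, 12.5% rose and 11.6% fell in that comparison, so the members' shares, 6.84% and 5.26%, were smaller. Among other genes with a level like that of the members, 8.74% rose and 11% fell. The median log2 fold change of the members was 0.06, against 0.00 over all genes. The balance depends on the scaling: with scaling to the spike-in counts 31 members rose and 1 fell, against 21.1% and 1.21% of all genes, and the medians were 0.68 for the members and 0.60 for all genes. In bulk RNA, fewer cells that express a gene and less RNA per cell cannot be told apart.

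The members that rose most were ZNF792, ZNF649, ZNF559, ZNF823, ZNF552 and ZNF551. ZNF792 stood at 1.81, 1.05 and 0.928 CPM in the starved libraries and at 3.41, 2.67 and 2.25 CPM in the solvent libraries. Its groups did not overlap, and its log2 fold change was 1.12 ± 0.32 (SE, adjusted p = 0.0209). ZNF649, a KRAB protein known to bind LINE-1 elements, stood at 2.03, 1.72 and 2.36 CPM in starved and at 4.81, 3.92 and 3.44 CPM in solvent libraries. Its log2 fold change was 1.00 ± 0.29 (adjusted p = 0.0238). ZNF551 was higher at 11.6, 9.12 and 8.71 CPM in solvent than at 5.51, 5.57 and 4.21 CPM in starved libraries, a log2 fold change of 0.94 ± 0.22 (adjusted p = 0.00835). ZNF559 and ZNF823 rose by 0.98 and 0.96, and ZNF552, which is uncertain, by 0.95 (log2 fold changes). Further down the list, ZNF175, reported as a repressor of HIV-1 transcription, rose by 0.68 ± 0.16 from 17.2, 12 and 18.3 CPM to 24.4, 26.7 and 24.7 CPM (adjusted p = 0.0074).

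The members that fell most were ZNF581, ZNF555, ZNF446, ZNF667, ZNF419 and ZNF773. ZNF581, at chr19:55635459-55645622, fell from 45.8, 55.9 and 54.4 CPM to 14.6, 17.8 and 21.6 CPM. Its log2 fold change was -1.53 ± 0.21 (adjusted p = 2.41e-04), and it is uncertain because 23% of its exon bases are overlapped by other genes. ZNF555 fell from 12, 10.1 and 9.85 CPM to 3.55, 4.58 and 4.08 CPM, a log2 fold change of -1.39 ± 0.24 (adjusted p = 0.00108). ZNF667, known as Mipu1 in rodents and induced there by ischaemic preconditioning, fell from 22.6, 21.7 and 19.4 CPM to 9.23, 8.54 and 8.45 CPM. Its log2 fold change was -1.28 ± 0.16 (adjusted p = 1.46e-04). ZNF446 and ZNF419, both uncertain, fell by 1.37 and 0.96, and ZNF773 fell by 0.89 on the log2 scale. The abundant ZNF561 fell by 0.79, from 91.8, 86.1 and 90.8 CPM to 55.4, 51.6 and 48.3 CPM. In each of these genes every starved library lay above every solvent library.

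The call was lost for ZNF792, ZNF649, ZNF559, ZNF823 and ZNF552 when single libraries were left out. For ZNF792 the adjusted p rose to at most 0.0907 (lost when solvent library 1, or starved library 2 or 3, was left out), and for ZNF552, lost in 5 of 6 cases, to at most 0.179. ZNF551 and the 6 genes that fell kept an adjusted p of at most 0.0366 in every such fit. The count of members called went from 23 to 12 without starved library 2 and to 15 without solvent library 1. Over all genes 1912 rose and 1778 fell with every library. Without starved library 2 these counts were 1104 and 1184, and without solvent library 1 they were 1407 and 1314. With spike-in scaling, under which the median of all genes rises by 0.60, ZNF555, ZNF446, ZNF667, ZNF419 and ZNF773 stayed below 0 and lost their calls (adjusted p from 0.164 to 0.606).

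With DMA most members lay below their level in solvent by a small amount, and few passed the test singly. In the DMA group 142 of 190 members (74.7%) had a log2 fold change below 0 against solvent, with a median of -0.26 and quartiles of -0.45 and 0.00. Over all genes tested the median was 0.01, and 49.3% lay below 0. All 3 DMA libraries lay below all 3 solvent libraries in 55 members (28.9%), against 11.9% of all genes. All 3 lay above in 13 members (6.84%), against 11.3% of all genes.

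By edgeR's quasi-likelihood test 3 members fell and 0 rose at an adjusted p under 0.05, while 1.01% of all genes fell and 0.738% rose. In this fit, which leaves out the replicate numbers, the share that fell, 1.58%, was near that of all genes. An unadjusted p under 0.05 was reached by 49 members. The replicate numbers pair the DMA and solvent libraries, and with the number as a block 19 members passed, 16 lower and 3 higher. Of all genes 5.36% were then lower and 4.73% higher. DESeq2 called 18 members, 15 lower and 3 higher, against 3.59% and 3.57% of all genes, and 16 members passed by both of these alternatives. In each of the 2, the members' share was above that of all genes for lower and below it for higher. By edgeR without the block, 0 members passed without solvent library 1, solvent library 2 or DMA library 2, 1 without DMA library 3, 2 without solvent library 3 and 5 without DMA library 1. Over all genes 113 rose and 154 fell with every library in the fit. They were 2 and 7 without solvent library 1, 5 and 22 without solvent library 2, and 1 and 0 without DMA library 2. They were 49 and 54 without DMA library 3, 105 and 125 without solvent library 3, and 112 and 169 without DMA library 1. With spike-in scaling 0 members passed, against 0.549% of all genes higher and 0.0457% lower. The median of the members was then -0.051, where that of all genes was 0.22. Without solvent library 1 the median of the members was -0.25, and the block then left 6 members, all lower. Over all genes 207 were higher and 267 lower in that fit with the block.

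The genes that fell were ZNF260, ZNF766 and ZNF480. ZNF260, at chr19:36510695-36528660 on the minus strand, encodes a protein of fingers with no KRAB motif whose rodent counterpart works with GATA factors in the heart. It stood at 29.6, 31.9 and 31.1 CPM in the solvent libraries and at 17.8, 18.5 and 14.3 CPM in the DMA libraries. Its log2 fold change was -0.87 ± 0.14 (adjusted p = 0.0161, and 0.00289 with the replicate block). The starved libraries, at 29.4, 23.8 and 24.8 CPM, and the C646 libraries, at 25.2, 27.5 and 26.5 CPM, all lay above the DMA libraries.

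ZNF766 and ZNF480 are neighbours in the same cluster, at chr19:52269571-52296046 and chr19:52297177-52325922, both on the plus strand and both with a KRAB motif. ZNF766 stood at 17.0, 13.7 and 16.2 CPM in solvent and at 8.24, 9.16 and 9.80 CPM in DMA libraries, a log2 fold change of -0.78 ± 0.17 (adjusted p = 0.0362). ZNF480 stood at 32.4, 33.8 and 28.8 CPM in solvent and at 22.5, 20.5 and 18.8 CPM in DMA libraries, a log2 fold change of -0.62 ± 0.14 (adjusted p = 0.0435). With the number as a block their adjusted p were 0.0075 and 0.0105. ZNF480 stood at 21.8, 21.5 and 23.1 CPM in starved libraries, below every solvent library, and its rise on refeeding was 0.52 ± 0.14 (adjusted p = 0.0172). These calls depend on single libraries. ZNF260 lost its call without solvent library 1, solvent library 2 or DMA library 2 (adjusted p up to 0.0706), ZNF766 without any of the 6 libraries (up to 0.140) and ZNF480 without any but DMA library 1 (up to 0.153). Over every alternative the adjusted p ran from 3.78e-07 to 0.657 for ZNF260, from 7.75e-04 to 0.829 for ZNF766 and from 0.00151 to 0.864 for ZNF480, and the highest came with spike-in scaling.

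C646 gave a smaller shift, and 1 member passed the test. Against solvent the median log2 fold change of the members was -0.08, and 116 of 190 (61.1%) lay below 0. Other genes with a transcript GC content between the members' quartiles were close to this, with a median of -0.06 and 58.3% below 0. By edgeR's quasi-likelihood test 1 member rose and 0 fell, against 0.81% and 0.399% of all genes. A total of 19 members had an unadjusted p under 0.05. With the replicate block 8 members passed (3 higher, 5 lower), against 4.13% and 3.71% of all genes, as did 8 with DESeq2 (4 higher, 4 lower), against 3.06% and 2.74%. All 3 C646 libraries lay below all 3 solvent libraries in 26 members (13.7%), against 11.6% of all genes, and above them in 6 (3.16%), against 10.2%. Among the other genes of like GC content these shares were 16.3% below and 9.55% above. The median is relative to TMM scaling. With scaling to the spike-in counts it was 0.054, where the median of all genes was 0.13, and 1 member rose and 0 fell, against 0.549% and 0.105% of all genes.

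The member that rose was ZNF44, a KRAB gene at chr19:12224686-12294887 on the minus strand. It stood at 11.6, 9.72 and 20.3 CPM in C646 libraries and at 4.11, 3.50 and 5.23 CPM in solvent libraries. Its log2 fold change was 1.69 ± 0.31 (adjusted p = 0.0236, and 8.60e-04 with the block). Starved libraries stood at 3.79, 5.57 and 5.92 CPM and DMA libraries at 4.07, 3.53 and 6.04 CPM, so the C646 libraries were above all others. The call was lost without solvent library 1 or 2 or C646 library 1 or 3, with an adjusted p of up to 0.115, which was also the highest over every alternative (lowest 3.17e-05).

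DMA and C646 differed directly in 4 members, all lower with DMA (edgeR, adjusted p under 0.05), against 1.94% of all genes lower and 0.947% higher. The median log2 difference over the members was -0.14, with 130 of 190 below 0. With the replicate block 15 members passed, 13 lower and 2 higher, against 5.81% and 3.94% of all genes. DESeq2 called 11, 9 lower and 2 higher, against 4.15% and 2.78%. With spike-in scaling 2 passed, both lower, against 0.444% of all genes lower and 0.346% higher. ZNF784 stood at 1.81, 1.92 and 1.14 CPM with DMA and at 6.54, 4.43 and 4.11 CPM with C646, a log2 difference of -1.63 ± 0.30 (adjusted p = 0.0129). ZNF784 has 6 fingers and no KRAB motif, and solvent libraries, at 3.69, 3.67 and 4.29 CPM, lay above the DMA libraries and overlapped with C646. ZNF44 differed by -1.61 ± 0.31 (adjusted p = 0.0173).

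ZNF627, a KRAB gene in the same cluster as ZNF44, stood at 13.0, 12.4 and 13.0 CPM with DMA and at 22.4, 21.8 and 28.8 CPM with C646. Its log2 difference was -0.92 ± 0.17 (adjusted p = 0.0112), and it was the only one of the 4 that kept its call whichever library was left out (adjusted p at most 0.0472). ZNF260 differed by -0.65 ± 0.14 (adjusted p = 0.0256). ZNF784 lost its call without DMA library 3 or C646 library 1 (adjusted p up to 0.0530), ZNF44 without DMA library 1 or 2 or C646 library 3 (up to 0.0734), and ZNF260 without DMA library 3 or any C646 library (up to 0.100). Without DMA library 3 or C646 library 3 2 members were called in each case. Of all genes 58 were higher and 124 lower without DMA library 3, and 78 and 168 without C646 library 3. With every library these counts were 145 and 297. Over every alternative the highest adjusted p were 0.145 for ZNF784, 0.0734 for ZNF44, 0.636 for ZNF627 and 1.00 for ZNF260.

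**Figure D1:**
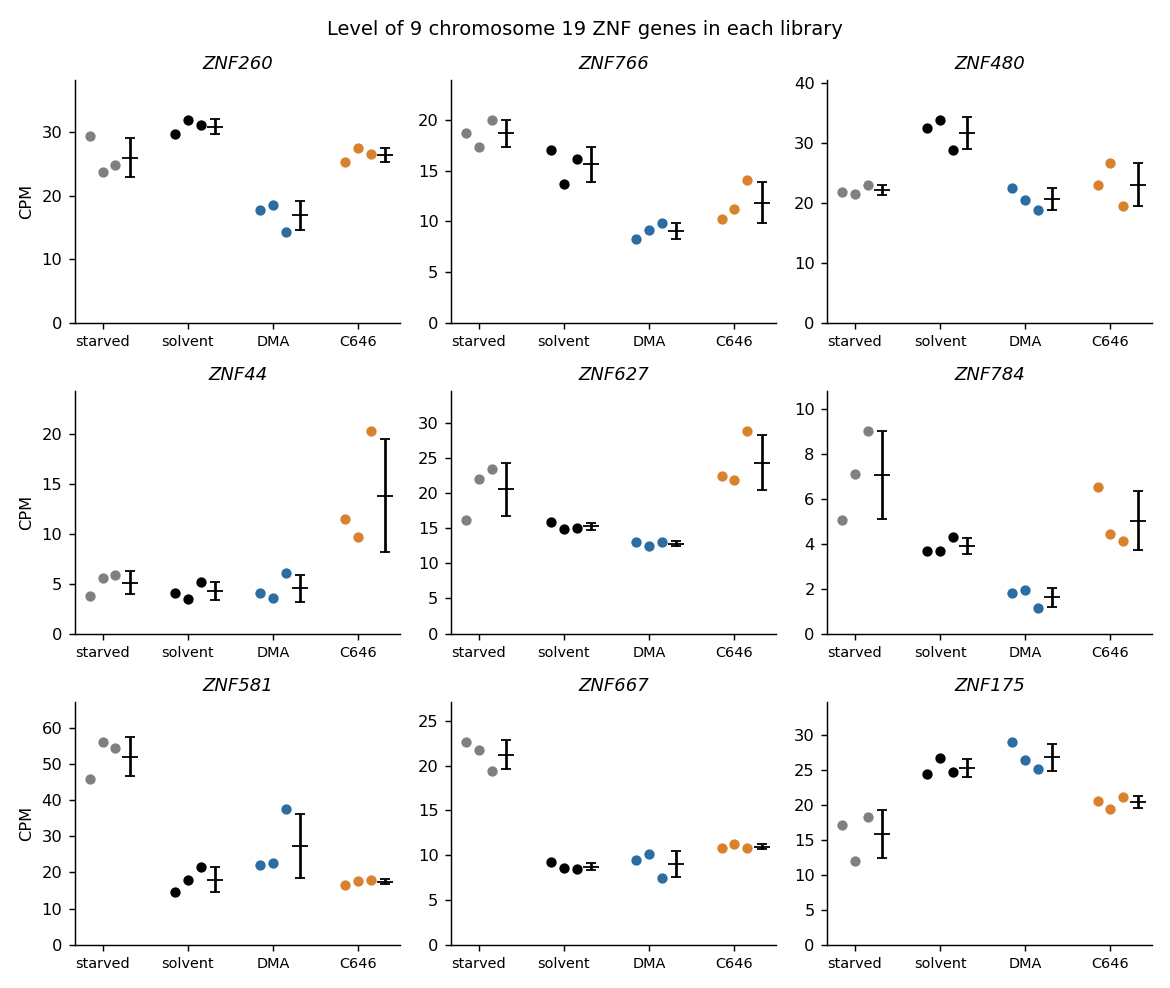
Level in CPM (vertical axes, from 0) of 9 members in each library of the starved, solvent, DMA and C646 groups (horizontal axis); points are libraries 1 to 3 from left to right, and the bar beside them is the mean ± SD (n = 3). ZNF260, ZNF766 and ZNF784 are lowest in the DMA libraries, ZNF44 is highest in the C646 libraries at 9.72 to 20.3 CPM, and ZNF581 and ZNF667 are highest in starved cells.

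Both inhibitor groups were also set against starved cells. These comparisons share the starved libraries with each other and with the refeeding comparison, so their values stand side by side without a count of agreement. With DMA 4 members rose and 25 fell, against 13.9% and 12.9% of all genes. With C646 10 members rose and 20 fell, against 12.8% and 11.6% of all genes. This balance turned over with spike-in scaling, where 38 rose and 2 fell with DMA, against 42.1% and 0.869% of all genes, and 41 rose and 1 fell with C646, against 33.4% and 0.797%. The median log2 fold changes were -0.14 for DMA and -0.01 for C646 with TMM scaling, and with spike-in scaling they were 0.67 and 0.71, where the medians of all genes were 0.81 and 0.73.

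The genes that fell most with DMA against starved cells were ZNF784 (log2 fold change -2.11 ± 0.30, adjusted p = 3.28e-04), ZNF554, ZNF419, ZNF555, ZNF404 and ZNF667. ZNF554 stood at 4.89, 4.31 and 4.85 CPM in starved, 2.18, 3.21 and 1.95 in solvent, 1.31, 1.97 and 1.33 in DMA and 0.745, 2.26 and 1.65 in C646 libraries. Its log2 fold change against starved cells was -1.60 ± 0.37 with DMA and -1.59 ± 0.37 with C646, both past the threshold, and -0.94 ± 0.36 in solvent (adjusted p = 0.0728), where it passed with the replicate block and with DESeq2. ZNF404 stood at 1.21, 0.715 and 0.809 CPM with DMA and at 1.6 to 2.86 CPM over the starved and C646 groups. ZNF404 lost its call without starved library 1, DMA library 2 or DMA library 3 (adjusted p up to 0.0728).

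The genes that rose with DMA against starved cells were ZNF792 (1.58 ± 0.32), ZNF823 (0.89 ± 0.28), ZNF576 (0.85 ± 0.15) and ZNF175 (0.76 ± 0.16, log2 fold changes). ZNF576 stood at 8.28, 8.5 and 8.14 CPM in starved libraries and at 12.2 to 16.9 CPM in all refed libraries. With C646 the largest rises were ZNF44 (1.45 ± 0.31), ZNF792 (1.18 ± 0.32), ZNF101 (1.13 ± 0.25), ZNF823 (1.04 ± 0.28), the uncertain ZNF440 (1.00 ± 0.33) and ZNF649 (0.93 ± 0.29). The largest falls with C646 were ZNF554, ZNF581 (-1.58 ± 0.21), ZNF555 (-1.40 ± 0.24), ZNF85 (-1.29 ± 0.33), ZNF419 (-1.13 ± 0.15) and ZNF571 (-1.09 ± 0.36). Calls that were lost without a single library were those of ZNF823 with DMA, and of ZNF792, ZNF823, ZNF440, ZNF649, ZNF85 and ZNF571 with C646, with adjusted p of up to 0.187 (ZNF440). Without C646 library 1 the members called with C646 went from 30 to 15. Over all genes the counts went from 1962 higher and 1778 lower to 1344 and 1204. With spike-in scaling the falls of ZNF554, ZNF419 and ZNF555 with either inhibitor, of ZNF404 and ZNF667 with DMA and of ZNF85 and ZNF571 with C646 lost their calls and kept their direction (adjusted p from 0.192 to 0.687).

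With DMA the median differed by KRAB motif and by GC content of the transcripts, and these features go together in this family. The 160 tested members with a KRAB motif had a median log2 fold change of -0.30 with DMA against solvent, and 131 of them lay below 0. The 30 without the motif had a median of 0.20, and 11 lay below 0. The median GC content of the transcripts was 43.1% with the motif and 62.4% without it. Among members of at most 50% GC, the 152 with the motif had a median of -0.31 and the 11 without it -0.34. Among members over 50% GC, the 8 with the motif had a median of -0.05 and the 19 without it 0.52. Those over 50% GC were not matched for GC content within that range.

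**Figure D2:**
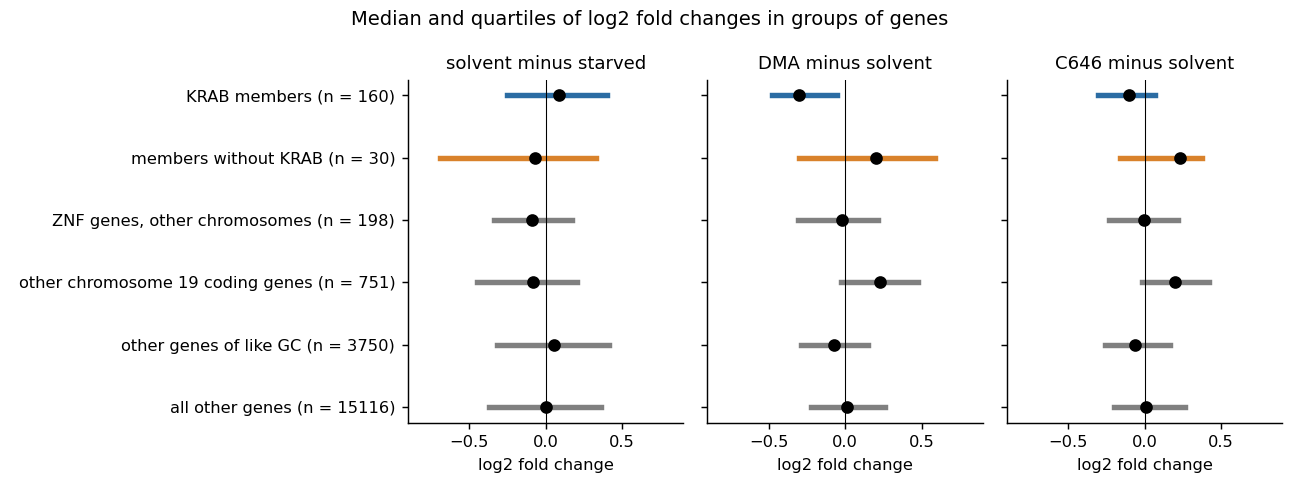
Median (point) and quartiles (bar) of the log2 fold change with TMM scaling (horizontal axes) for groups of genes (rows, with the number of genes tested) in 3 comparisons. With DMA the KRAB members have a median of -0.30, while other chromosome 19 coding genes lie at 0.23.

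Genes outside the family followed GC content in the same direction by smaller amounts. With DMA against solvent, other genes of at most 50% GC had a median of -0.07 and other genes over 50% GC a median of 0.12. In the bin from 40% to 42% GC the 38 members had a median of -0.33 and the 1360 other genes -0.09. From 42% to 44% GC the 45 members had a median of -0.25 and the 1387 other genes -0.08. Above 60% GC the 18 members had a median of 0.54 and the 1946 others 0.28. Measured against other genes of like GC content, the median of the members with DMA was -0.20. The part of GC content in the shift was not tested further.

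**Figure D3:**
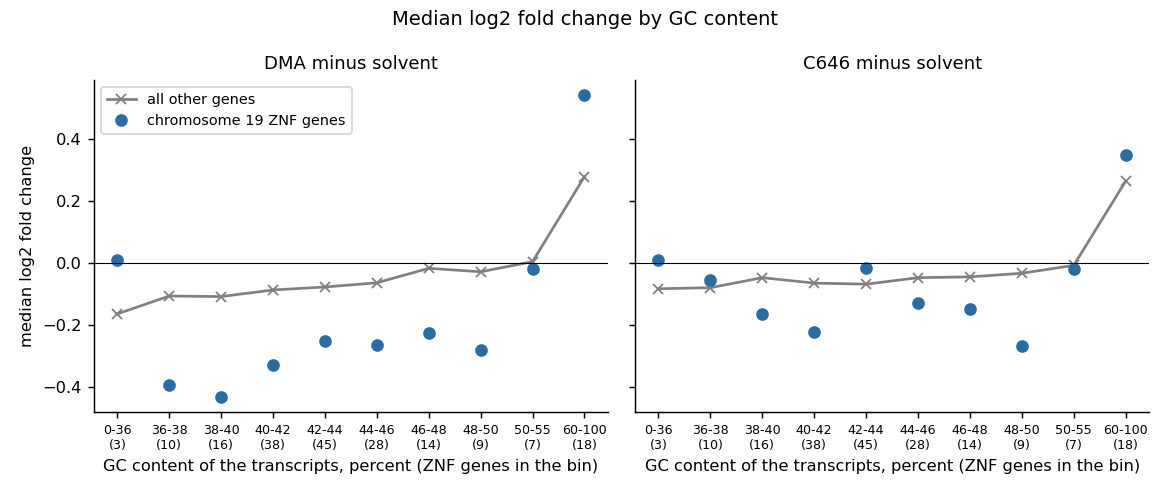
Median log2 fold change (vertical axis) of chromosome 19 ZNF genes (points) and all other genes (crosses) in bins of transcript GC content in percent (horizontal axis, with the number of ZNF genes in each bin), for DMA and C646 against solvent; the bin from 55% to 60%, with 2 members, is not drawn. With DMA the members lie below other genes in each drawn bin from 36% to 50% GC.

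The shift was also read within each replicate number. With DMA against solvent the median of the members was -0.29, -0.25 and -0.19 in numbers 1, 2 and 3, and 138, 135 and 128 members lay below 0. The split of other genes by GC content was largest in number 1, with medians of -0.16 at up to 50% GC and 0.26 above it. It was -0.01 and 0.02 in number 2, and -0.04 and 0.06 in number 3. The median of the KRAB members was -0.31, -0.28 and -0.20 in the same order. With C646 the median of the members was -0.14, -0.19 and 0.02, and the shift did not hold in number 3. Other genes of at most 50% GC then had medians of -0.12, -0.07 and 0.04, and those above 50% GC 0.24, 0.11 and -0.07.

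**Figure D4:**
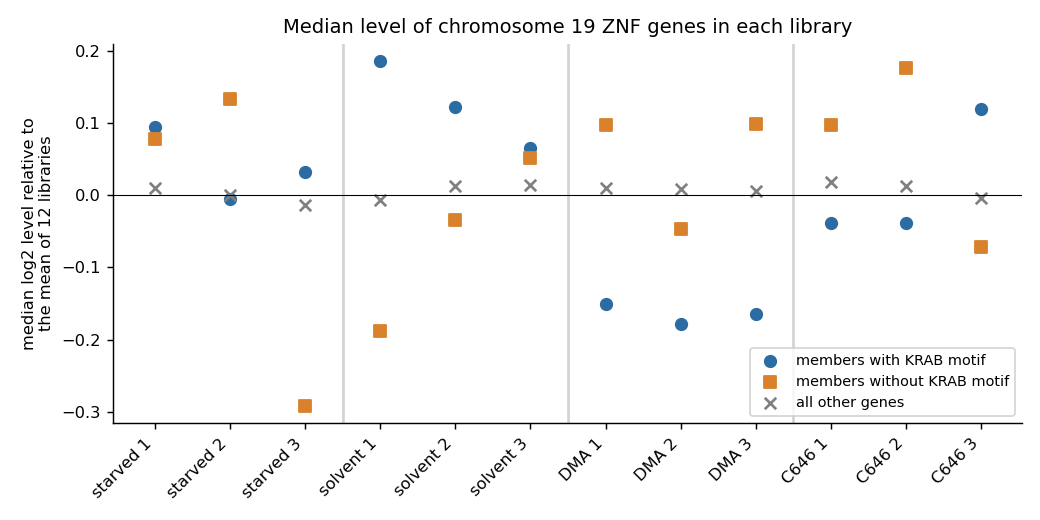
Median log2 level of KRAB members, members without a KRAB motif and all other genes in each library, relative to each gene's mean over the 12 libraries (vertical axis). The KRAB members lie at -0.15, -0.18 and -0.16 in the DMA libraries and between 0.07 and 0.19 in the solvent libraries.

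Per library, the median log2 level of the members relative to their mean was 0.16, 0.12 and 0.07 in the solvent group and -0.09, -0.16 and -0.13 in the DMA group, with no overlap. It was 0.09, 0.01 and -0.01 in starved and -0.01, 0.02 and 0.08 in C646 libraries. The summed level of the KRAB members was 700, 684 and 652 TPM in solvent and 599, 606 and 571 TPM in DMA libraries. In starved libraries it was 715, 693 and 629 TPM and in C646 libraries 632, 655 and 700 TPM, so both groups overlapped with solvent.

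The shift was also set beside that of other groups of genes. The 198 tested ZNF genes on other chromosomes had a median of -0.02 with DMA against solvent, and 3 rose and 2 fell. Their median GC content was 46.6% and their median level 3.68 log2 CPM, against 43.3% and 2.49 for the members. They were not split by KRAB motif or GC content. The 751 other protein-coding genes of chromosome 19 had a median of 0.23 with DMA and 0.20 with C646, and a median GC content of 60.4%. Of these genes 52 lie inside the ZNF clusters, and their median with DMA was 0.13, with 19 of 52 below 0 and a median GC content of 53.4%. Other genes expressed at a level like that of the members had a median of -0.01.

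Within the family the number of fingers set apart only the short proteins. With DMA the 17 members with 0 to 6 fingers had a median of 0.14, and those with 7 to 10, 11 to 14 and 15 or more fingers had medians of -0.30, -0.31 and -0.26. Members above and at or below the median level had medians of -0.22 and -0.28. The 144 members that are not uncertain had a median of -0.25.

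The members fall into 10 clusters of at least 5 genes with gaps of under 500 kb, plus 12 scattered genes. With DMA against solvent the median lay below 0 in 9 of the 10 clusters. In the cluster from 43.5 to 44.5 Mb, whose most abundant member was ZNF226 (35.7 TPM), 21 of 23 tested members lay below 0, with a median of -0.38. From 57.2 to 58.5 Mb, led by ZNF274 (12.5 TPM), 30 of 37 lay below 0, with a median of -0.28. ZNF274 is known to bring SETDB1 to the ends of zinc finger genes themselves, and its own log2 fold change was -0.02 ± 0.16. From 51.6 to 53.6 Mb, led by ZNF83, 25 of 29 lay below 0 (median -0.27), and ZNF766 and ZNF480 lie here.

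From 36.2 to 37.8 Mb, led by ZNF146 and holding ZNF260, 14 of 17 lay below 0 (median -0.34). From 34.7 to 35.0 Mb, led by ZNF302 (12 TPM), the median of 5 members was -0.37, and from 2.8 to 2.9 Mb, led by ZNF77 (5.94 TPM), that of 4 members was -0.61. From 8.5 to 9.8 Mb, led by ZNF561, the median was -0.22 in 12 members. The cluster next to the centromere, from 19.7 to 24.1 Mb, led by ZNF91 (8.58 TPM), had a median of -0.14 in 20 tested members of 37, and a median GC content of 38.5%.

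In 2 clusters the pattern was another. From 55.5 to 56.7 Mb, led by ZNF580 (39.5 TPM), the median with DMA was 0.28 in 14 members and the median GC content 64.9%. The 5 KRAB members there had a median of -0.39 and the others 0.65. On refeeding this cluster had a median of -0.30, and 3 of its 14 tested members fell, where 11.6% of all genes did. The 1946 other genes above 60% GC had a median of -0.18 on refeeding. From 11.5 to 12.6 Mb, which holds ZNF44 and ZNF627, the median with DMA was -0.07 and that with C646 was 0.25, with 5 of 21 below 0. It was 1 of 2 clusters with a median above 0 with C646, the other being that from 55.5 to 56.7 Mb at 0.35. With spike-in scaling the median of all genes rises by 0.22 with DMA and 0.13 with C646, and these cluster medians are relative to TMM scaling.

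**Figure D5:**
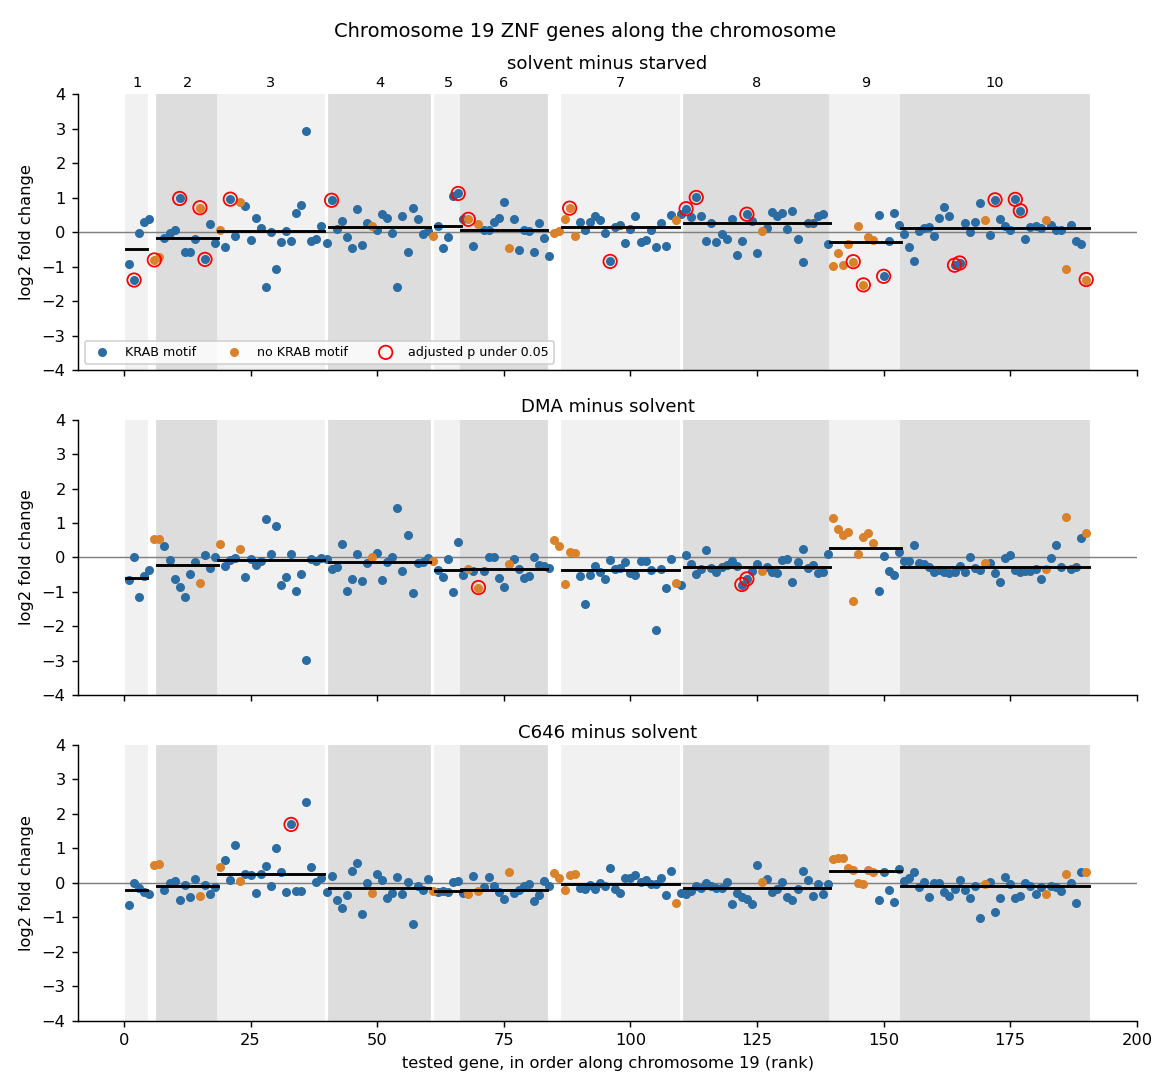
Log2 fold change with TMM scaling (vertical axes) of the 190 tested members in order along chromosome 19 (horizontal axis, rank) in 3 comparisons; shaded blocks numbered 1 to 10 are the clusters, black lines their medians, and red circles genes with an adjusted p under 0.05. With DMA 9 of 10 cluster medians lie below 0, and cluster 9 lies at 0.28.

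A panel of 20 members, most of them with known or studied targets, was followed across all groups, and 17 of them were tested. ZNF91, which represses SVA elements, stood at 18.6, 22.4 and 14.7 CPM in solvent and at 16.5, 19.7 and 13.2 CPM in DMA libraries, and its log2 fold change of -0.17 ± 0.20 did not pass the test. ZNF93, which represses LINE-1 elements, stood at 5.30, 2.79 and 2.17 CPM in solvent and at 2.11, 1.34 and 1.76 CPM in DMA libraries. It fell by 1.12 ± 0.36 on the log2 scale with DMA against starved cells (adjusted p = 0.0344). ZNF85 fell against starved cells with DMA and with C646, from 2.11, 2.85 and 3.00 CPM to 1.46, 1.07 and 1.28 CPM and to 0.869, 1.01 and 1.37 CPM.

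ZNF587 and ZNF417, a pair that silences HERV-K elements and whose sequences are close enough to make both uncertain, had log2 fold changes of -0.40 ± 0.22 and -0.39 ± 0.24 with DMA against solvent, and neither passed. ZNF611, uncertain and known to bind SVA elements, had -0.27 ± 0.24, and ZNF765, also uncertain, -0.44 ± 0.20. ZNF146 rose by 0.37 ± 0.11 on refeeding (adjusted p = 0.0297), from 114, 90.9 and 98.2 CPM to 146, 125 and 120 CPM. ZNF507 was lower with C646 than in starved cells by 0.36 ± 0.11 on the log2 scale (adjusted p = 0.0335). ZNF274, ZNF331, ZNF382, ZNF675, ZNF226 and ZNF112 passed in none of the 6 comparisons by edgeR without the block. With DMA against starved cells ZNF226 passed with the replicate block, and ZNF587 with the block and with DESeq2.

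A list of 40 genes, all tested, was read beside the members. It holds genes that act with KRAB proteins, or that make, read or keep methylated histone H3 lysine 9 and silent DNA. TRIM28 itself stood at 642 ± 106 TPM in starved, 655 ± 46 in solvent, 692 ± 19.5 in DMA and 665 ± 80.1 in C646 cells, and passed in no comparison. On refeeding 7 of the 40 rose and 4 fell by edgeR, against 12.5% and 11.6% of all genes. The methyltransferase SETDB1 fell by 0.38 ± 0.11 on the log2 scale (adjusted p = 0.0257), with its partner ATF7IP, its relative SETDB2 and the SUMO protease SENP7. The genes that rose were MTA2 (0.77 ± 0.10) and HDAC1 (0.57 ± 0.10) of the NuRD deacetylase complex, SUV39H2, another H3 lysine 9 methyltransferase (0.94 ± 0.26), CBX3, DAXX, PPHLN1 and MORC2. These directions are relative to TMM scaling, and the list is not given with spike-in scaling. With that scaling the median of all genes rises by 0.60 on refeeding, more than the falls of SETDB1 and ATF7IP.

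No gene of this list passed with DMA or C646 against solvent or between the inhibitors (0 of 40 each by edgeR). At an unadjusted p under 0.05 there were 8, 7 and 4, and DESeq2 called 4, 1 and 3. The list's median was -0.02, -0.06 and 0.02 in these comparisons. Against starved cells 5 rose and 5 fell with DMA, where 13.9% and 12.9% of all genes did, and 4 rose and 3 fell with C646, where 12.8% and 11.6% did. These counts too are with TMM scaling.

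Promoter sequence was read for 168 of the 190 members from RefSeq on GRCh38.p14, in a window from 250 bases before to 50 after the start. The ETS motif CCGGAAGT, on either strand, was in 21.4% of the members, in 17.0% of 165 ZNF genes tested on other chromosomes and in 4.44% of 27305 promoters in all. The SP motif GGGCGG was in 67.9% against 44.6% of all promoters, and CCAAT in 53.0% against 35.7%. The ZNF genes on other chromosomes held these 2 in 64.8% and 45.5%. TATAAA was in 2.38% of the members, against 12% of all promoters and 4.24% of the ZNF genes on other chromosomes. The median number of CpG in the window was 21 in members and 14 over all promoters. CCAAT was in 58.3% of the KRAB members and 27.6% of those without the motif. TGACGTCA (CRE), the NRF1 motif, AAGATGGC (YY1) and TTTCCCGC (E2F) were in 4.17%, 13.7%, 7.14% and 1.19% of the members, against 1.98%, 8.78%, 3.03% and 1.66% of all promoters. In the ZNF genes on other chromosomes they were in 4.85%, 16.4%, 3.64% and 3.64%. A match is a description of letters, and bases of different motifs may overlap.

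The 150 bases before the start are shown for 4 of the 6 members called with an inhibitor against solvent or between the inhibitors, with matches to these motifs in capitals. They let the members that fell with DMA be read beside ZNF44, which rose with C646. The windows are chr19:36528272-36528421 (ZNF260, minus strand), chr19:52269437-52269586 (ZNF766, plus strand), chr19:12294884-12295033 (ZNF44, minus strand, the upstream of its 2 starts) and chr19:55624567-55624716 (ZNF784, minus strand). ZNF260 held none of the motifs in these bases, ZNF766 and this window of ZNF44 held SP and CCAAT matches, and ZNF784 also an NRF1 match. The window of the other ZNF44 start, at chr19:12294613-12294762, held none of the motifs.
ZNF260: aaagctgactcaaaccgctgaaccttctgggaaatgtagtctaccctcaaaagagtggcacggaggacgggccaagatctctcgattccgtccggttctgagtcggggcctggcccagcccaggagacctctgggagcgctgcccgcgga
ZNF766: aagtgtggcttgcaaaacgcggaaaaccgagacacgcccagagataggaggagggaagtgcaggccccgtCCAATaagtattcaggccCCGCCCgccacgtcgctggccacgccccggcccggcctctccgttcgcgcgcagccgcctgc
ZNF44: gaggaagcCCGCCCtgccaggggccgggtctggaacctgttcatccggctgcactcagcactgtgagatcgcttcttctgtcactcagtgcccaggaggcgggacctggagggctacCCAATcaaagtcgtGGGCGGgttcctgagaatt
ZNF784: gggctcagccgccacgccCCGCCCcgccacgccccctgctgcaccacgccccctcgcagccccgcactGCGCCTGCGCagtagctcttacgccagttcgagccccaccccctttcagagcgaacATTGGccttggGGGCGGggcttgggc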

How the data were processed

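Per the labels, polyadenylated RNA was sequenced with a stranded kit. The submitters' processing notes name Trimmomatic 0.36, STAR 2.7.0e and the build GRCh38.p10, and in the sources used here no name is given for the quantification program. The deposited tables hold, per the file headers, the authors' estimated counts and TPM for each of 182164 transcripts. Expected counts were summed per gene over GENCODE 29 and rounded, with 92 spike-in and 264 unmatched transcripts left out. The deposited TPM were summed per gene for levels.

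Genes with at least 10 counts in 3 libraries were scaled by TMM and tested with edgeR 4.0.16 (robust quasi-likelihood F-test, all 12 libraries in 1 fit, Benjamini-Hochberg over 15306 genes, threshold 0.05), after a check on simulated data. CPM are TMM-scaled. KRAB boxes and C2H2 fingers were found by motif in the longest coding sequence. A gene is uncertain with over 20% shared 31-base sequences or overlapped exon bases. The members and lists were chosen with earlier results of these data known.

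Genes named are, per comparison, up to 6 in each direction with the largest change among called members with no overlap of libraries and a mean log2 CPM of at least 0, the 8 highest in TPM, a panel of 20 and the most abundant of each cluster. ZNF175, ZNF561 and ZNF576 are described in other comparisons too. Alternatives were DESeq2 1.42.0, its size factors, spike-in scaling, other filters, the compared groups alone, leaving out each library, members with little shared sequence, other cluster gaps and the replicate number as a block. Same-numbered libraries deviated together in the inhibitor groups with all others (correlation at least 0.122 for every pair), which counts as pairing. For solvent with starved cells 1 of 3 pairs fell below 0.1, at 0.0974, which is close to that limit. The others were at 0.330 and 0.183.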

Additional observations from a re-analysis of the deposited data

How the results depend on the processing

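With DESeq2 size factors and edgeR's filterByExpr each count of members called stayed within 1.5 times its value, as it did for members with little shared sequence, and no named change turned its direction. The median with C646 against starved cells, -0.012, crossed 0 with no filter (0.015), with spike-in scaling and without single libraries. With spike-in scaling the median log2 fold change of the members was 0.68 (solvent against starved), -0.051 (DMA against solvent), 0.054 (C646 against solvent), -0.052 (DMA against C646), 0.67 (DMA against starved) and 0.71 (C646 against starved), where the medians of all genes were 0.60, 0.22, 0.13, 0.10, 0.81 and 0.73. Relative to other genes of like GC content, an alternative chosen after seeing the data, the median with DMA against solvent was -0.20.

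Members called with DMA against solvent were 0 with spike-in scaling, 7 with no filter, 19 with the replicate block, 0 in a fit of the 2 groups alone, 6 with the block and no solvent library 1 (chosen after seeing the data) and 18 with DESeq2. With C646 against solvent they were 8 with the block, 0 in the 2 groups alone, 3 with the block and no solvent library 1 and 8 with DESeq2. Between the inhibitors they were 2 with spike-in scaling, 15 with the block, 1 in the 2 groups alone and 11 with DESeq2. In the 2 groups alone, 12 of all genes were higher and 6 lower with DMA against solvent. These counts were 56 and 17 with C646 against solvent, and 44 and 87 between the inhibitors. With no filter, 188 of 27631 genes were higher and 267 lower with DMA against solvent. With C646, the block and no solvent library 1 they were 215 and 113. For solvent against starved cells, where the libraries are not paired by the rule used, the members called were 42 with the block (24 higher, 18 lower) and 37 with DESeq2. Of all genes 17.9% were higher and 17.6% lower with the block, and 14.5% and 13.9% with DESeq2. Against starved cells the block gave 39 members with DMA and 38 with C646, and it ended no call of a named gene. Of all genes 19.2% were higher and 19.4% lower with DMA, and 18.3% and 17.7% with C646. The causes of these differences were not tested. The fits of 2 groups held fewer libraries than the main fit.

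Leaving out each library gave 12 to 23 members called (solvent against starved), 0 to 5 (DMA against solvent), 0 to 1 (C646 against solvent), 2 to 4 (between the inhibitors), 21 to 28 (DMA against starved) and 15 to 25 (C646 against starved). The medians ran from 0.062 to 0.13, from -0.31 to -0.24, from -0.13 to -0.036, from -0.19 to -0.10, from -0.19 to -0.10 and from -0.040 to 0.044 in the same order. Calls over all genes also varied with the library left out. With DMA against starved cells 1500 to 1820 genes were higher and 1521 to 1725 lower, against 2125 and 1976 with every library. With C646 against starved cells 1257 to 1667 were higher and 1204 to 1548 lower, against 1962 and 1778. Clusters with a median below 0 with DMA were 10 of 12 with a gap of 250 kb and 9 of 9 with a gap of 1 Mb. Depth limits the low members, since 3 reads correspond to up to 0.201 CPM.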

Other observations

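ZNF709 and ZNF233 lie outside the rule for named genes and were chosen after their values were seen. ZNF709, at chr19:12461184-12513854 and uncertain because 78.6% of its 31-base sequences are found elsewhere and 79.2% of its exon bases are overlapped, was at 0.0828, 0.927 and 1.51 CPM with C646, at 0.425 CPM in solvent library 3 and at no more than 0.0702 CPM in the other 8 libraries. ZNF233 was at 0.553, 0.134 and 0 CPM with DMA and at 0.552 to 1.93 CPM in the other 9 libraries.

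In the cluster that holds ZNF44, ZNF441 and ZNF627 had log2 fold changes of 1.10 and 0.67 with C646 against solvent, with adjusted p of 0.141 and 0.0635 by edgeR without the block. Both passed with the replicate block and with DESeq2, and were named after these calls were seen.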
